A study of Mus musculus with 9 samples.

Results

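The genes described here are 32 genes of cholesterol and fatty acid synthesis, chosen by symbol from the 24100 genes of the count table. All 32 matched a gene ID, and all 32 had enough counts to be among the 14761 genes tested. They comprise 18 enzymes of the sterol pathway, 1 enzyme of its isoprenoid branch, 5 regulators, 2 sterol transport proteins and 6 enzymes of fatty acid synthesis. The rule that picks them uses no measured value, though the set was drawn up with earlier results of these data known. RNA was measured in 9 libraries of mouse cells that the labels call neural and that had been differentiated from embryonic stem cells. All 9 carried a stably expressed PiggyBac transgene, a construct inserted by a DNA transposon, that makes histone H4 with a triple HA epitope tag. The H4 of the transgene was wild type in 3 libraries (H4WT), had arginine in place of lysine at residue K91 in 3 (H4K91R) and glutamine there in 3 (H4K91Q). The labels do not name the transgene's promoter, its share of the H4 in the cells or the state of the endogenous H4 genes. They also leave unsaid whether replicates came from different differentiations, clones or lines, so each p-value covers only the spread among these 9 libraries, which may be technical.

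Total counts ran from 8970553 to 28887501 per library, with a median of 16364686. Levels are given as CPM, with library totals adjusted by TMM, a correction for unequal composition of the libraries. The labelled neural identity was checked on marker lists. All 8 neuron markers and all 8 neural progenitor markers were detected, with summed levels in H4WT of 169.9 to 243.5 CPM and 1835 to 2234 CPM. Vim and Nes, which other cells also express, gave nearly all of the progenitor sum, with H4WT means of 1743 and 168 CPM, and the sum is therefore a weak check of neural identity. Markers of other cells were also present: 8 smooth muscle markers summed to 3939 to 4751 CPM in H4WT and 8 fibroblast markers to 5701 to 6625 CPM. In such bulk RNA, fewer cells of a type and less RNA of a gene per cell cannot be told apart.

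Cells make cholesterol from acetyl-CoA in a long series of steps. The early ones form mevalonate and then the isoprenoid farnesyl diphosphate, and the later ones form squalene, lanosterol and, by removal and rearrangement of groups on the sterol rings, cholesterol. Fatty acids are made from the same acetyl-CoA, which ATP citrate lyase releases in the cytosol. The transcription factors SREBP1 and SREBP2, encoded by Srebf1 and Srebf2, bind promoters of both pathways after Scap has escorted them from the endoplasmic reticulum to the Golgi, and Insig proteins hold them back when sterols are plentiful. In neural tissue most cholesterol is made locally, since lipoproteins of the blood do not cross the blood-brain barrier.

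SREBP2 is known to act together with NF-Y, which binds CCAAT boxes, and with Sp1, which binds GC-rich boxes. RefSeq promoter sequences (GRCm38.p6, from 250 bases before to 50 bases after the start) were at hand for 26 of the 32 genes. The sequences below are the 150 bases before the first listed start. They belong to 5 sterol enzymes and 1 regulator that fell in at least 1 mutant, and to Hmgcs1, which fell in neither. Acat2, Pmvk, Tm7sf2, Scap, Abca1 and Ggps1, also called in neither mutant, are not printed. The choice of printed genes therefore allows no contrast between genes that fell and genes that did not. The sequences read 5′ to 3′ along the gene's strand. Capitals mark TCACNCCAC, the core of a sterol regulatory element, CCAAT on either strand (ATTGG on the other), and CACGTG, the E-box that SREBP1 can bind.
Hmgcs1, chr13:119690201-119690350, plus strand: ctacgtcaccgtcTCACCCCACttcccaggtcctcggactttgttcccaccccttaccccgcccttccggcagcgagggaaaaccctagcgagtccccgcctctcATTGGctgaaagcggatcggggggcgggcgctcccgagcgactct
Idi1, chr13:8885456-8885605, plus strand: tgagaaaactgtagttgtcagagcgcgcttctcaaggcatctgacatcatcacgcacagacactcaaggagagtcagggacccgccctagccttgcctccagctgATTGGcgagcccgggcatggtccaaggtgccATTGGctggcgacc
Cyp51, chr5:4104698-4104847, minus strand: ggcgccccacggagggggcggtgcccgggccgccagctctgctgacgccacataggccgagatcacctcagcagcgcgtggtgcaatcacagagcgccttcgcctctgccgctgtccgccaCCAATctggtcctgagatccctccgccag
Msmo1, chr8:64733579-64733728, minus strand: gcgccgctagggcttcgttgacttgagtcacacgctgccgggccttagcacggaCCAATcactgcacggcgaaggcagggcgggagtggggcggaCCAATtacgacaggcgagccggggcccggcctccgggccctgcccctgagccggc
Hsd17b7, chr1:169969206-169969355, minus strand: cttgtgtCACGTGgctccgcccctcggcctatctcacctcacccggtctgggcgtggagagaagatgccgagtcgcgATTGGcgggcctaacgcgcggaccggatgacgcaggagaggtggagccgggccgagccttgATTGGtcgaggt
Sc5d, chr9:42264301-42264450, minus strand: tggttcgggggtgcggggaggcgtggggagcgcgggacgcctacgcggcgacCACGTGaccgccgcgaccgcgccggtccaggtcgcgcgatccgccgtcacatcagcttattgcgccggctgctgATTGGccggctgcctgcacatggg
Insig1, chr5:28071262-28071411, plus strand: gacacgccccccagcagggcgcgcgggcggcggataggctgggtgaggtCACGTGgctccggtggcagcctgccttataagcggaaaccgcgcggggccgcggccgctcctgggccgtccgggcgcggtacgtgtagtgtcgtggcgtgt
Only the Hmgcs1 promoter, among these 26, held TCACNCCAC, 137 bases before the start. Over the full 300 bases, 1.17% of 17492 protein-coding genes held it. Variants of this string were not searched, so its absence does not show that a promoter lacks a sterol regulatory element. CCAAT was present in 20 of 26 promoters of the 32 genes, against 39% of protein-coding genes, and in 13 of 15 promoters of sterol enzymes. GGGCGG was present in 19 of 26 and in 14 of 15, against 46.3%. CACGTG was present in 5 of 26, against 7.9%. All motifs were searched on both strands, and no match in capitals overlaps another in the printed stretches. The median GC content of the promoters was 59.8% for the 32 genes' 26 promoters and 56.3% for protein-coding genes, and no test of enrichment was made. A match is a description of the letters only.

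In both mutants most of the 32 genes were lower than in H4WT. Against H4WT, 21 of 32 genes fell in H4K91R and 24 of 32 fell in H4K91Q (edgeR quasi-likelihood test, Benjamini-Hochberg adjusted p below 0.05 over all genes tested). In both, 0 of 32 rose, with DESeq2 and limma-voom as well, and every gene at an unadjusted p below 0.05 (21 in H4K91R and 26 in H4K91Q) was lower. Over all genes tested, 25.1% fell and 20.9% rose in H4K91R, and 23.8% fell and 22.5% rose in H4K91Q. All 32 genes had a mean of at least 20 CPM. Among the 8400 tested genes at or above that level, 32.7% fell in H4K91R and 31.7% fell in H4K91Q. The median log2 change of the 32 genes was -0.30 in H4K91R and -0.36 in H4K91Q, against -0.03 and 0.01 over all genes tested. The falls were modest: the greatest among the 32 was Hsd17b7, at 1.70-fold in H4K91R and 2.02-fold in H4K91Q. In 23 of the 32 genes all 3 H4K91R libraries lay below all 3 H4WT libraries, and the same count, 23, held for H4K91Q. Over all genes tested, 30.1% lay so in H4K91R and 27.7% in H4K91Q. With the joint test of any difference among the 3 groups, 25 of 32 genes differed, against 50.6% of all genes. Both comparisons use the same 3 H4WT libraries, so their values are set side by side and are not independent.

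**Figure D1:**
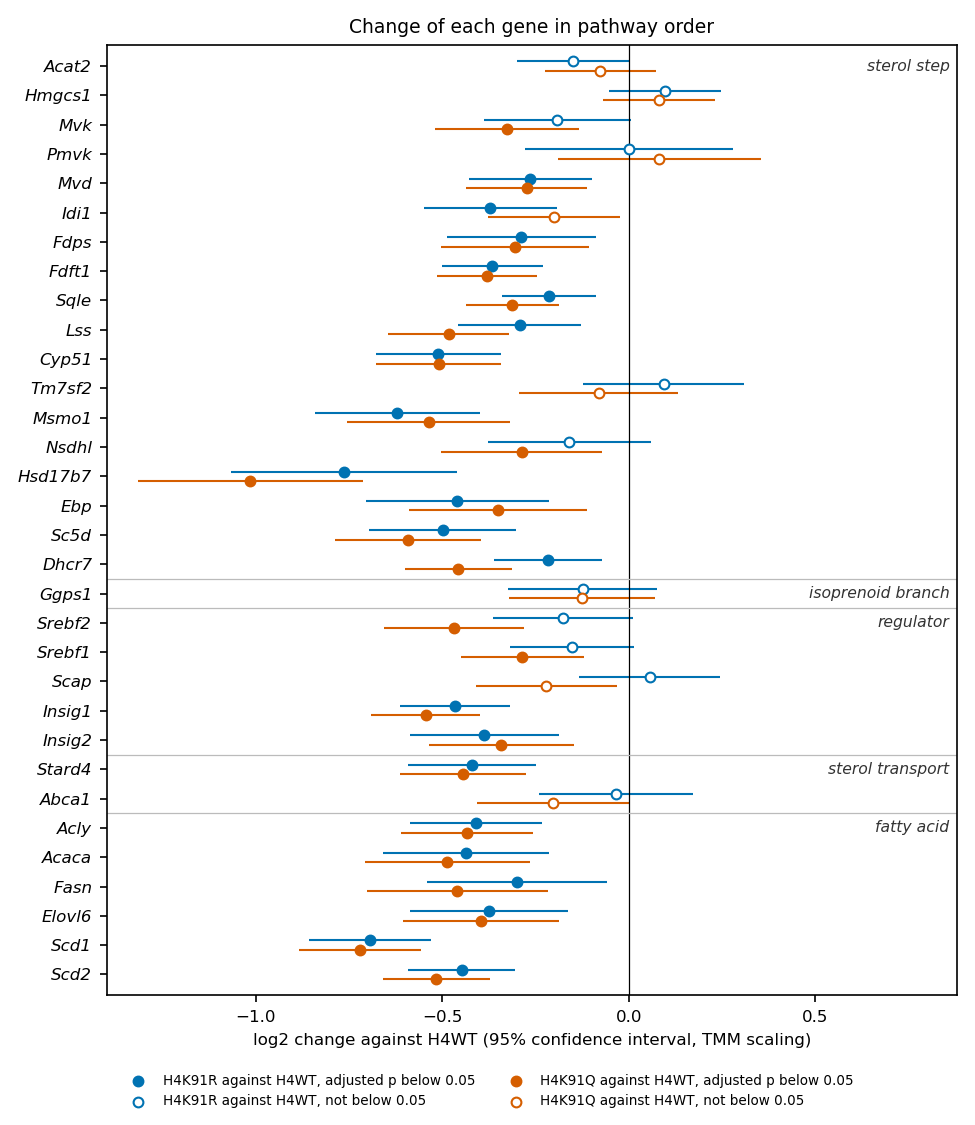
Log2 change against H4WT of each of the 32 genes, in pathway order within its role, for H4K91R and H4K91Q, with the 95% confidence interval as a bar and filled points for an adjusted p below 0.05. Most points lie left of 0, among them those of all 6 fatty acid genes. Of the early sterol steps, Acat2, Mvk, Mvd, Idi1 and Fdps lie left of 0 in both mutants, while Hmgcs1 and Pmvk lie at or right of 0.

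The early sterol enzymes, the 7 from Acat2 to Fdps, are those that lead to farnesyl diphosphate. Of these 7, 3 fell in H4K91R (Mvd, Idi1 and Fdps) and 3 fell in H4K91Q (Mvk, Mvd and Fdps), with median log2 changes of -0.19 and -0.20. That was 42.9% in each mutant, against 25.1% and 23.8% of all genes tested. Of tested genes at or above 20 CPM, 32.7% and 31.7% fell, not far below the share of these 7. Acat2, the cytosolic thiolase that joins acetyl-CoA units, had log2 changes of -0.15 ± 0.07 (SE) in H4K91R and -0.08 ± 0.07 in H4K91Q and passed the test in neither. Hmgcs1, which makes HMG-CoA (chromosome 13, 119690351 to 119708260), stood at 559, 494 and 509.7 CPM in H4WT replicates 1, 2 and 3. It stood at 542, 565 and 565 CPM in H4K91R and at 574, 562 and 517 CPM in H4K91Q. The 3 groups overlapped. Its log2 changes were 0.10 (95% interval -0.05 to 0.25, edgeR adjusted p = 0.276) and 0.08 (-0.07 to 0.23, edgeR adjusted p = 0.359). Hmgcs1 was 1 of 4 genes of the 32 with an estimate above 0 in H4K91R and 1 of 2 in H4K91Q.

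Mvk, mevalonate kinase, fell in H4K91Q by 0.33 ± 0.09 on the log2 scale (edgeR adjusted p = 0.00938), and its change in H4K91R was -0.19 ± 0.09 (edgeR adjusted p = 0.102). Pmvk, the next kinase, had log2 changes of 0.00 ± 0.13 and 0.08 ± 0.13, the widest errors among the early steps. Mvd, the decarboxylase that yields isopentenyl diphosphate, fell by 0.26 ± 0.08 in H4K91R and by 0.27 ± 0.08 in H4K91Q. Its call in H4K91R was lost without H4WT replicate 1 (edgeR adjusted p = 0.0641) and without H4K91R replicate 2 (0.0561). Idi1, the isomerase of isopentenyl diphosphate (chromosome 13, 8885606 to 8892396), stood at 181, 149.6 and 154 CPM in H4WT and at 123, 124 and 127 CPM in H4K91R. Its H4K91Q libraries stood at 143, 149 and 129 CPM, between those of the other groups. Idi1 fell in H4K91R by 0.37 ± 0.08 on the log2 scale (edgeR adjusted p = 0.00244), and its change in H4K91Q was -0.20 ± 0.08 (edgeR adjusted p = 0.0603). The H4K91Q call appeared without H4WT replicate 2 (0.0325) or without H4K91Q replicate 2 (0.0451). It was the only 1 of the 32 genes called in H4K91R and not in H4K91Q. The difference between the mutants, 0.17 ± 0.08, did not pass the test (edgeR adjusted p = 0.24).

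Fdps, which makes farnesyl diphosphate at the end of this stretch, stood at 255, 239 and 214 CPM in H4WT, at 187, 178 and 216 CPM in H4K91R and at 175, 206 and 192 CPM in H4K91Q. It fell by 0.29 ± 0.09 and 0.30 ± 0.09 on the log2 scale (edgeR adjusted p = 0.0209 and 0.0154), although 1 H4K91R library lay above 1 H4WT library. The H4K91R call for Fdps was lost without H4WT replicate 1 (0.1), H4WT replicate 2 (0.0589), H4K91R replicate 1 (0.0651) or H4K91R replicate 2 (0.0957). The H4K91Q call was lost without H4WT replicate 1 (0.0659) or H4K91Q replicate 1 (0.0744). Farnesyl diphosphate also feeds the isoprenoid branch. Ggps1, which extends it to geranylgeranyl diphosphate for protein prenylation, ranged from 39.0 to 46.5 CPM in H4WT, 35.9 to 42.4 CPM in H4K91R and 37.9 to 41.7 CPM in H4K91Q. Its log2 changes, -0.12 (95% interval -0.32 to 0.08) and -0.13 (-0.32 to 0.07), did not pass the test.

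Of the sterol-specific enzymes, the 11 from Fdft1 to Dhcr7, 9 fell in H4K91R and 10 fell in H4K91Q. That was 81.8% and 90.9%, against 25.1% and 23.8% of all genes tested. The median log2 changes of these 11 were -0.37 and -0.46. The difference between the early and the late steps is a description of 7 and 11 genes and was not tested. Fdft1, squalene synthase, the first enzyme committed to sterols, stood at 172, 163 and 172 CPM in H4WT. It stood at 133, 126 and 134 CPM in H4K91R and at 128, 134 and 126 CPM in H4K91Q, all below H4WT. Its falls were 0.37 ± 0.06 and 0.38 ± 0.06 on the log2 scale (edgeR adjusted p = 0.000352 and 0.000268). Sqle, squalene epoxidase, a rate-limiting step, was even within groups, at 219, 220.5 and 221 CPM in H4WT, 189, 196 and 185 CPM in H4K91R and 174, 181 and 177 CPM in H4K91Q. The 3 groups of Sqle did not overlap, and its falls were 0.21 ± 0.06 and 0.31 ± 0.06 on the log2 scale. Lss, which closes the rings to form lanosterol, also had 3 groups without overlap: 117, 97.7 and 106 CPM, then 87.9, 87.4 and 85.3 CPM, then 75.3, 72.8 and 80.2 CPM. It fell by 0.29 ± 0.08 in H4K91R and by 0.48 ± 0.08 in H4K91Q (edgeR adjusted p = 0.00671 and 0.000194).

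Cyp51, the lanosterol demethylase (chromosome 5, 4080674 to 4104697), stood at 402, 336 and 345 CPM in H4WT. Its H4K91R libraries stood at 259, 246 and 254 CPM and its H4K91Q libraries at 255, 266 and 238 CPM. Both mutants lay below every H4WT library, and Cyp51 fell by 0.51 ± 0.08 on the log2 scale in each (edgeR adjusted p = 0.000138 and 0.00015). Tm7sf2, a sterol reductase that follows Cyp51, was the late enzyme that passed the test in neither mutant, with log2 changes of 0.09 ± 0.10 and -0.08 ± 0.10. It shares its reaction with the lamin B receptor Lbr, which had a mean of 134.9 CPM in H4WT, against 25.8 CPM for Tm7sf2. Lbr fell in H4K91R by 0.33 ± 0.07 (edgeR adjusted p = 0.00124), and its change in H4K91Q was -0.17 ± 0.07 (edgeR adjusted p = 0.0509). Msmo1, the methylsterol oxidase that begins removal of the other methyl groups (chromosome 8, 64718123 to 64733578), stood at 219, 167 and 177 CPM in H4WT. It stood at 119.9, 119 and 126 CPM in H4K91R and at 130.0, 142 and 115 CPM in H4K91Q. Its falls were 0.62 ± 0.10 and 0.54 ± 0.10 on the log2 scale (edgeR adjusted p = 0.000268 and 0.00081), with no overlap with H4WT.

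Nsdhl and Hsd17b7 complete each round of demethylation. Nsdhl, the decarboxylating dehydrogenase, fell in H4K91Q by 0.29 ± 0.10 (edgeR adjusted p = 0.0311) while 1 H4WT library, at 48.4 CPM, lay within the H4K91Q range of 46.5 to 48.7 CPM. That call was lost on leaving out H4WT replicate 1 (0.101) or 3 (0.138), or any 1 of the 3 H4K91Q libraries (0.0577, 0.0797 and 0.0634 without replicates 1, 2 and 3), and with limma-voom (0.0576). In H4K91R its log2 change was -0.16 ± 0.10 (edgeR adjusted p = 0.22), and it was called there without H4WT replicate 2 (0.0112). Hsd17b7, the keto-reductase (Entrez 15490, chromosome 1, 169949535 to 169969242), stood at 152, 105 and 129 CPM in H4WT. It stood at 90.8, 69.5 and 64.4 CPM in H4K91R and at 67.9, 59.0 and 62.6 CPM in H4K91Q. Every mutant library lay below every H4WT library. Its falls, 0.76 ± 0.14 and 1.02 ± 0.14 on the log2 scale (edgeR adjusted p = 0.000612 and 6.86e-05), were the greatest of the 32 genes in each mutant.

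The last 3 sterol steps listed are an isomerase, a desaturase and a reductase. Ebp, the isomerase, ranged from 37.1 to 49.2 CPM in H4WT, 29.6 to 35.6 CPM in H4K91R and 31.4 to 37.7 CPM in H4K91Q. It fell by 0.46 ± 0.11 and 0.35 ± 0.11 on the log2 scale, and the H4K91Q call was lost without H4WT replicate 2 (edgeR adjusted p = 0.122) or without H4K91Q replicate 1 (0.056) or 3 (0.0715). Sc5d, the desaturase (chromosome 9, 42251592 to 42264300), stood at 84.3, 72.3 and 89.2 CPM in H4WT, at 61.2, 59.6 and 51.6 CPM in H4K91R and at 54.5, 52.2 and 55.4 CPM in H4K91Q. It fell without overlap by 0.50 ± 0.09 and 0.59 ± 0.09 on the log2 scale (edgeR adjusted p = 0.000597 and 0.000158). Dhcr7, the reductase mutated in Smith-Lemli-Opitz syndrome, stood at 96.0, 97.0 and 99.9 CPM in H4WT. It stood at 83.2, 83.8 and 85.1 CPM in H4K91R and at 67.5, 69.7 and 76.2 CPM in H4K91Q, so that the 3 groups formed 3 separate ranges. Its falls were 0.22 ± 0.07 and 0.46 ± 0.07 on the log2 scale (edgeR adjusted p = 0.0181 and 0.000113). The H4K91R call for Dhcr7 was lost without H4WT replicate 3 (0.0641) or without H4K91R replicate 1 (0.0579) or 2 (0.0511).

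**Figure D2:**
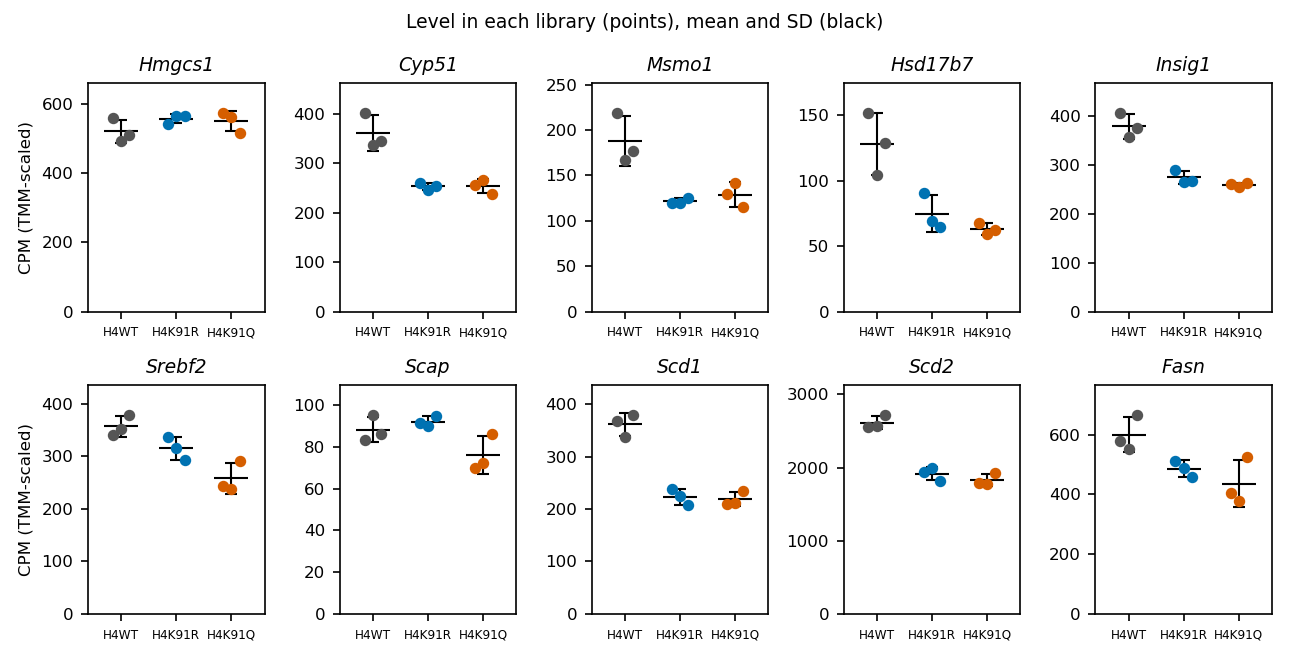
Levels in CPM of 10 of the 32 genes in each library (points), with the group mean as a line and the SD as a bar, for H4WT, H4K91R and H4K91Q. Hmgcs1 overlaps between groups, Cyp51, Msmo1, Hsd17b7, Insig1, Scd1 and Scd2 show every mutant library below every H4WT library, and Srebf2 and Scap have their lowest mean in H4K91Q.

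Among the 5 regulators, 2 fell in H4K91R and 4 fell in H4K91Q, and 5 of 5 differed in the joint test. Over all genes tested, 25.1% and 23.8% fell and 50.6% differed in the joint test. Srebf2, which encodes SREBP2 (chromosome 15, 82147269 to 82205379), stood at 341, 351 and 379 CPM in H4WT, at 337, 316 and 293 CPM in H4K91R and at 244, 238 and 292 CPM in H4K91Q. The groups lay in that order without overlap. Srebf2 fell in H4K91Q by 0.47 ± 0.09 (edgeR adjusted p = 0.000706), and its log2 change in H4K91R was -0.18 ± 0.09 (edgeR adjusted p = 0.113). Srebf1, which encodes SREBP1, stood at 215, 251 and 243 CPM in H4WT, at 219, 214 and 205 CPM in H4K91R and at 181, 192 and 209.8 CPM in H4K91Q. It fell in H4K91Q by 0.29 ± 0.08 (edgeR adjusted p = 0.0081), and its log2 change in H4K91R was -0.15 ± 0.08 (edgeR adjusted p = 0.121). Scap, the escort protein of both factors, stood at 83.4, 95.3 and 86.5 CPM in H4WT, at 91.7, 89.97 and 95.02 CPM in H4K91R and at 69.8, 72.3 and 86.4 CPM in H4K91Q. Its log2 changes against H4WT were 0.06 ± 0.09 and -0.22 ± 0.09, and neither passed the test (edgeR adjusted p = 0.636 and 0.0528). For H4K91Q, Scap was called without H4WT replicate 1 (0.0474), without H4K91Q replicate 3 (0.0061), with limma-voom (0.041) and with the replicate number as a block (0.0477).

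The Insig pair, which retains the complex of Scap and SREBP in the endoplasmic reticulum, fell in both mutants. Insig1, itself a target of SREBP (chromosome 5, 28071412 to 28078662), stood at 407, 357 and 375 CPM in H4WT, at 289.6, 266 and 268 CPM in H4K91R and at 261, 255 and 264 CPM in H4K91Q. It fell by 0.47 ± 0.07 and 0.55 ± 0.07 on the log2 scale (edgeR adjusted p = 0.000102 and 3.11e-05), with no mutant library within the H4WT range. Insig2 stood at 34.4, 33.0 and 32.5 CPM in H4WT, at 23.998, 25.6 and 26.9 CPM in H4K91R and at 27.4, 27.9 and 23.3 CPM in H4K91Q. Its falls were 0.39 ± 0.09 and 0.34 ± 0.09 on the log2 scale (edgeR adjusted p = 0.00385 and 0.00717). With libraries scaled by their totals alone, both calls of Insig2 were lost (edgeR adjusted p = 0.087 and 0.122). Per kb of the longest GENCODE M21 protein-coding transcript, the H4WT level of Insig1 was 140.7 CPM and that of Insig2 was 12.3 CPM. On the same per-length scale Srebf2 stood at 70.3 CPM and Srebf1 at 55.01 CPM in H4WT.

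Of the sterol transport proteins, Stard4 fell in both mutants and Abca1 in neither. Stard4, which carries sterol between membranes in the cytosol and is a known SREBP target, stood at 86.2, 82.3 and 83.2 CPM in H4WT, at 63.4, 59.1 and 65.4 CPM in H4K91R and at 64.3, 55.2 and 65.2 CPM in H4K91Q. It fell by 0.42 ± 0.08 and 0.45 ± 0.08 on the log2 scale (edgeR adjusted p = 0.000746 and 0.000471). Abca1, which exports cholesterol and is induced by the oxysterol receptor LXR, stood at 95.7, 107 and 118 CPM in H4WT, at 104, 110.3 and 99.7 CPM in H4K91R and at 94.9, 81.8 and 102 CPM in H4K91Q. The groups overlapped, with log2 changes of -0.03 ± 0.10 and -0.20 ± 0.09, neither past the test. In H4K91Q, Abca1 was called without H4WT replicate 1 (edgeR adjusted p = 0.0408) or H4K91Q replicate 3 (0.0409).

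All 6 enzymes of fatty acid synthesis fell in both mutants, with median log2 changes of -0.42 in H4K91R and -0.47 in H4K91Q. The 18 sterol steps had medians of -0.28 and -0.32, with 12 and 13 of 18 called. Over all genes tested, 25.1% and 23.8% fell, with medians of -0.03 and 0.01. Of tested genes at or above 20 CPM, 32.7% and 31.7% fell. The 11 late sterol steps alone had medians of -0.37 and -0.46, close to those of the fatty acid genes. The difference between fatty acid genes and sterol steps was not tested. Acly, the ATP citrate lyase that supplies both pathways, stood at 828, 737 and 856 CPM in H4WT, at 646, 601 and 573 CPM in H4K91R and at 602, 547 and 643 CPM in H4K91Q. It fell by 0.41 ± 0.08 and 0.43 ± 0.08 on the log2 scale (edgeR adjusted p = 0.00112 and 0.000806). Acaca, acetyl-CoA carboxylase, which makes malonyl-CoA, fell by 0.44 ± 0.10 and 0.49 ± 0.10. Fasn, fatty acid synthase, stood at 579, 554 and 666 CPM in H4WT, at 513, 488 and 458 CPM in H4K91R and at 405, 377 and 525 CPM in H4K91Q. It fell by 0.30 ± 0.11 and 0.46 ± 0.11 on the log2 scale (edgeR adjusted p = 0.0431 and 0.00458). The H4K91R call for Fasn was lost with DESeq2 (adjusted p = 0.0543) and RLE scaling (0.0721). It was also lost without H4WT replicate 1 (0.0698) or 3 (0.181), without H4K91R replicate 2 (0.0929) or 3 (0.117), and without H4K91Q replicate 1 (0.0505).

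The elongase and the desaturases modify the product of Fasn. Elovl6, which lengthens palmitate, ranged from 97.4 to 120.5 CPM in H4WT, 79.5 to 89.7 CPM in H4K91R and 73.9 to 91.1 CPM in H4K91Q, and fell by 0.37 ± 0.10 and 0.40 ± 0.10 on the log2 scale. Scd1, a stearoyl-CoA desaturase that makes monounsaturated fatty acids (chromosome 19, 44394450 to 44407709), stood at 368, 337 and 379 CPM in H4WT. It stood at 237, 225 and 207 CPM in H4K91R and at 210.3, 212 and 235 CPM in H4K91Q. Scd1 fell by 0.69 ± 0.08 and 0.72 ± 0.08 on the log2 scale (edgeR adjusted p = 9.17e-06 and 8.08e-06), which was 1.62-fold and 1.65-fold. Scd2, its neighbour (chromosome 19, 44293676 to 44306864) and the main desaturase of the developing brain, stood at 2556, 2569.9 and 2717 CPM in H4WT. It stood at 1944, 1993 and 1813 CPM in H4K91R and at 1792, 1769.8 and 1920.5 CPM in H4K91Q. Scd2 fell without overlap by 0.45 ± 0.07 and 0.52 ± 0.07 on the log2 scale (edgeR adjusted p = 0.000114 and 3.96e-05). Scd1 and Scd2 are similar genes whose shared reads Salmon divides, so the split of counts between them carries some uncertainty. Per kb of transcript the H4WT level of Scd2 was 479.3 CPM and that of Scd1 was 74.8 CPM.

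The summed level of the 32 genes was 8375 to 8968 CPM in the H4WT libraries, 6689 to 7010 CPM in H4K91R and 6380 to 6830 CPM in H4K91Q. The sum of the 18 sterol steps was 2601 to 2946 CPM, 2249.7 to 2345 CPM and 2191 to 2329.9 CPM in the same order. The sum of the 6 fatty acid genes was 4458 to 4931 CPM, 3255 to 3559.7 CPM and 3089 to 3558 CPM, and Scd2 gave the greatest part of it. For each of these sums both mutants lay below every H4WT library, and the mutants overlapped each other. With libraries scaled by their totals alone, the sterol sums were 2431 to 2697, 2373 to 2444 and 2285 to 2415 CPM, so that H4K91R overlapped H4WT and H4K91Q lay just below it. The fatty acid sums were then 4167 to 4489, 3392 to 3737 and 3201 to 3711 CPM, with both mutants below H4WT.

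**Figure D3:**
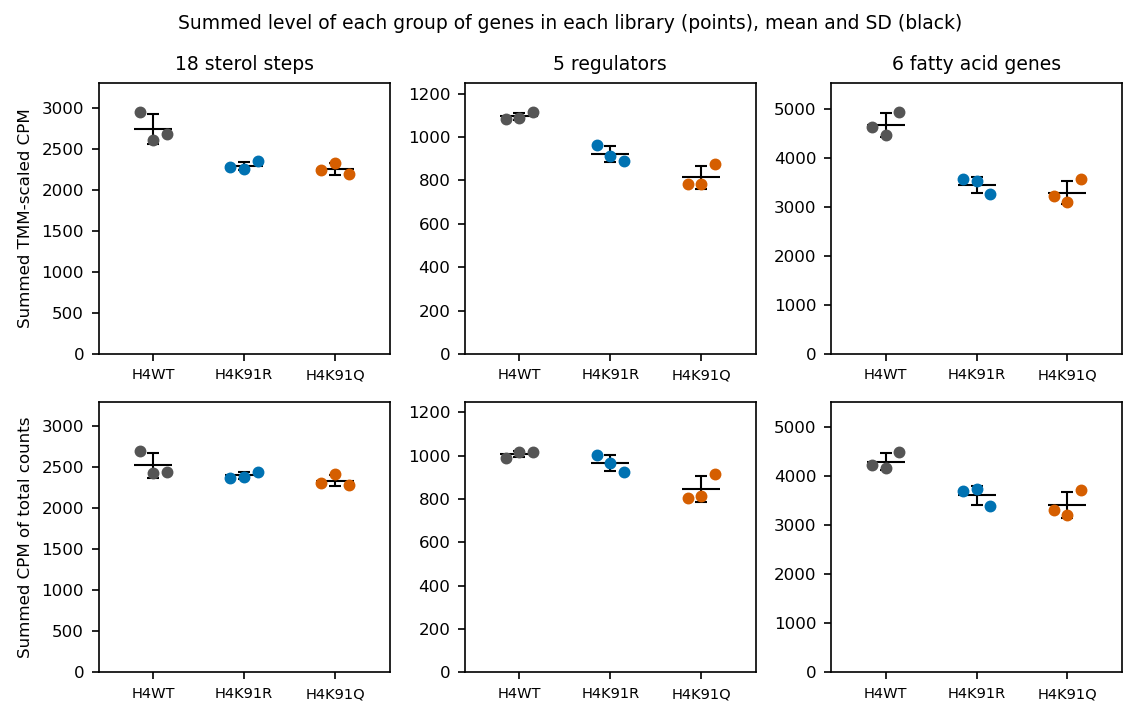
Summed level in CPM of the sterol steps, regulators and fatty acid genes in each of the 9 libraries (points), with TMM scaling in the upper row and library totals alone in the lower row, the group mean as a line and the SD as a bar. In the upper row H4WT libraries lie above both mutants for the sterol steps (2601 to 2946 CPM) and the fatty acid genes (4458 to 4931 CPM), and in the lower row the sterol steps of H4K91R overlap those of H4WT.

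Several calls depended on the scaling of the libraries. Scaling by library totals alone, in place of TMM, raised the median log2 change of all genes by 0.18 in H4K91R and by 0.17 in H4K91Q. On that scale 10 of the 32 genes fell and 3 rose (Hmgcs1, Tm7sf2 and Scap) in H4K91R, and 15 fell and 1 rose (Hmgcs1) in H4K91Q. Of all 14761 genes tested, 2013 fell and 5031 rose in H4K91R on that scale, and 2069 fell and 5557 rose in H4K91Q. The median of the sterol steps was then -0.09 and -0.15 and that of the fatty acid genes -0.24 and -0.30. Relative to the median of all genes, the differences hardly moved. A change of scaling shifts all genes by nearly the same amount, so this was fixed in advance and is no check of the calls. The sterol steps lay 0.25 below it in H4K91R under either scaling (-0.25), and the fatty acid genes at -0.39. In H4K91Q the sterol steps lay at -0.33 relative to it under either scaling, and the fatty acid genes at -0.49 with TMM and -0.48 with totals alone. No gene called by edgeR with TMM had an estimate of the opposite sign under any of 16 alternatives. In H4K91R, 10 of 21 calls remained under all 16, those of Fdft1, Cyp51, Msmo1, Hsd17b7, Sc5d, Insig1, Stard4, Acly, Scd1 and Scd2. In H4K91Q, 15 of 24 calls remained under all 16. The H4K91Q calls of Mvk, Mvd, Fdps, Sqle, Nsdhl, Ebp, Srebf1, Insig2 and Elovl6 did not, and each of these was lost with library totals alone.

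**Figure D4:**
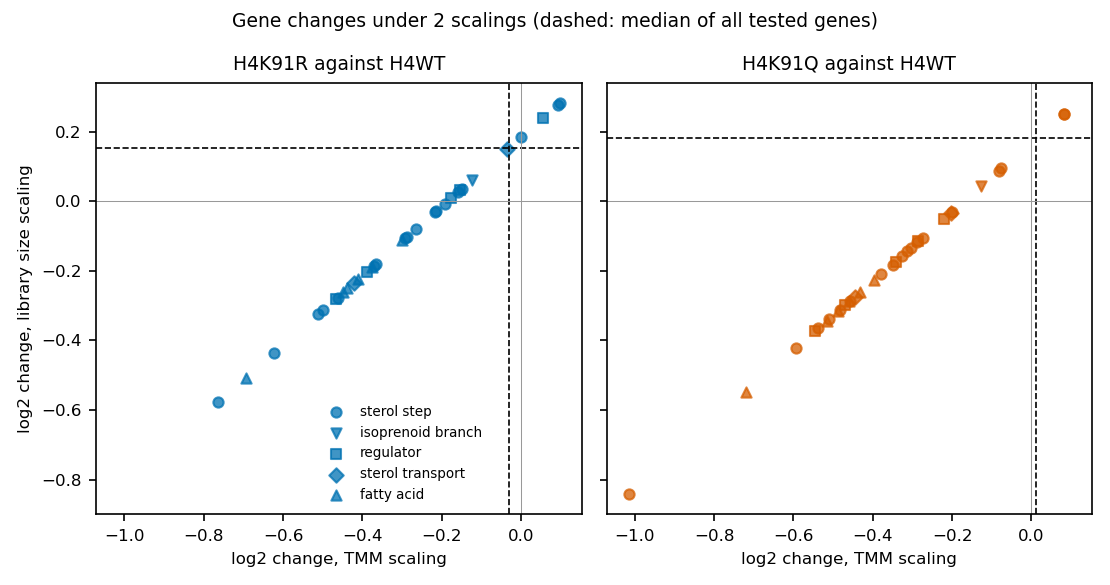
Log2 change of each of the 32 genes against H4WT with TMM scaling (x axis) and with library totals alone (y axis), with dashed lines at the median of all tested genes. The genes keep their order, and the whole set is shifted up by 0.18 in H4K91R and 0.17 in H4K91Q, as the dashed lines are.

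Between the mutants, 0 of the 32 genes passed the test in either direction (edgeR, adjusted over all genes), where 2.78% of all genes were lower in H4K91Q and 2.37% were higher. At an unadjusted p below 0.05, 4 of 32 did, namely Lss, Dhcr7, Srebf2 and Scap, all lower in H4K91Q, while 22.3% of all genes tested had such a p in either direction. DESeq2 called 3 genes lower in H4K91Q, and limma-voom called 1. Dhcr7 had a log2 difference (H4K91Q minus H4K91R) of -0.24 (95% interval -0.38 to -0.10, edgeR adjusted p = 0.0556), and it was called with DESeq2 (0.0178), limma-voom (0.047) and RLE scaling (0.0397). Srebf2 had a difference of -0.29 (-0.48 to -0.10, edgeR adjusted p = 0.0715) and Scap one of -0.28 (-0.46 to -0.09, edgeR adjusted p = 0.0832), and DESeq2 called both (0.0227 and 0.0399). Without H4K91Q replicate 3, edgeR called Dhcr7 (0.0269), Srebf2 (0.0192) and Scap (0.0214). Estimates were below 0 for 25 of 32 genes, against 49% of all genes. A fall called in only 1 mutant, as for Idi1 in H4K91R or Mvk, Nsdhl, Srebf2 and Srebf1 in H4K91Q, is therefore not shown to differ between them.

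Another 6 lists of lipid genes held 104 genes, of which 103 were tested, and the lists were written with earlier results of these data known. Together 42 fell and 12 rose in H4K91R, and 45 fell and 10 rose in H4K91Q. With library totals alone these counts were 24 and 27 in H4K91R and 29 and 24 in H4K91Q. Of all 14761 genes tested, 2013 fell and 5031 rose in H4K91R on that scale, and 2069 and 5557 in H4K91Q. With TMM the falls were 40.8% and 43.7% of the 103, against 25.1% and 23.8% of all genes tested. Of 21 other sterol genes, 12 fell and 4 rose in H4K91R and 11 fell and 2 rose in H4K91Q. The falls in this list were 57.1% and 52.4%. Soat1, which esterifies cholesterol for storage, fell by 0.66 ± 0.06 and 0.53 ± 0.06 on the log2 scale, from a mean of 177 CPM in H4WT. Lipa, the lysosomal acid lipase, fell by 0.65 ± 0.07 and 0.59 ± 0.07. Ch25h, which makes an oxysterol that blocks SREBP processing, fell by 2.38 ± 0.28 and 1.91 ± 0.25, from 6.82 ± 1.18 CPM (mean ± SD) in H4WT to 1.21 ± 0.50 and 1.75 ± 0.38 CPM.

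Of 11 other genes of SREBP processing and sterol-sensed degradation, 5 fell and 1 rose in H4K91R and 6 fell in H4K91Q. The falls were 45.5% and 54.5%, against 25.1% and 23.8% of all genes tested. Mbtps2, the protease that makes the final cut in SREBP, fell by 0.36 ± 0.09 and 0.38 ± 0.09 on the log2 scale. Syvn1, a ubiquitin ligase of the endoplasmic reticulum, fell in H4K91Q by 0.37 ± 0.08, and its change in H4K91R was -0.17 ± 0.08, called there without H4WT replicate 1 (edgeR adjusted p = 0.0374). Hsp90b1, a chaperone of the endoplasmic reticulum, fell by 0.54 ± 0.07 and 0.45 ± 0.07. With library totals alone, the calls of Mbtps2 and Syvn1 were lost. The LXR genes, which respond to oxysterols, were mixed: of 9 tested, 2 rose and 2 fell in H4K91R, and 4 rose and 2 fell in H4K91Q. The falls, 22.2% in each mutant, were near the share of all genes. The rises were 22.2% and 44.4%, against 20.9% and 22.5% of all genes tested. Rxra, the partner receptor of LXR, rose by 0.56 ± 0.07 and 0.60 ± 0.07, and Lpcat3, a phospholipid-remodelling enzyme, fell by 0.51 ± 0.08 and 0.58 ± 0.08. Abcg4, a neuronal sterol exporter at 1.35 to 1.56 CPM in H4WT, rose by 1.42 ± 0.21 in H4K91R and by 0.62 ± 0.21 in H4K91Q. The latter call was lost with DESeq2 (adjusted p = 0.0972) and without H4WT replicate 2 (0.112) or 3 (0.0701) or H4K91Q replicate 1 (0.0631) or 2 (0.0623).

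Of 32 other fatty acid and glycerolipid genes, 14 fell and 4 rose in H4K91R and 16 fell and 2 rose in H4K91Q. The falls were 43.8% and 50%, against 25.1% and 23.8% of all genes tested. Me1, malic enzyme, which supplies NADPH for fatty acid synthesis, fell by 0.84 ± 0.07 and 0.83 ± 0.07 on the log2 scale, from 437 ± 14.4 CPM (mean ± SD) in H4WT to 244 ± 13.7 and 246 ± 15.2 CPM. Fads3, of the fatty acid desaturase family, fell by 0.98 ± 0.09 and 1.02 ± 0.09. Lpin1, a phosphatidate phosphatase, fell by 0.84 ± 0.11 and 1.06 ± 0.11. Of 12 genes that use isoprenoids, 3 fell in H4K91R and 2 in H4K91Q, shares close to those of all genes. Pggt1b, a geranylgeranyl transferase subunit, fell by 0.51 ± 0.10 and 0.50 ± 0.10, and Nus1, of dolichol synthesis, by 0.42 ± 0.08 and 0.37 ± 0.08. Pdss1, of coenzyme Q synthesis, fell in H4K91R by 0.40 ± 0.14. That call was lost with DESeq2 (adjusted p = 0.0938) and without H4WT replicate 1 (0.0677) or 3 (0.0719) or H4K91R replicate 1 (0.0721) or 2 (0.105). Of 18 genes of fatty acid oxidation, 6 fell and 1 rose in H4K91R and 8 fell and 2 rose in H4K91Q. The falls were 33.3% and 44.4%. Of tested genes at or above 20 CPM, 32.7% and 31.7% fell, so the H4K91R share was near theirs. Cpt1a, the mitochondrial carnitine transferase, fell by 0.47 ± 0.09 and 0.55 ± 0.09. Pdk4, a kinase that spares glucose when fatty acids are burnt, fell by 1.22 ± 0.21 and 1.03 ± 0.20. Cpt1c, the brain form of the transferase, fell in H4K91Q by 0.63 ± 0.09, and its change in H4K91R was -0.22 ± 0.09, called there without H4WT replicate 1 (edgeR adjusted p = 0.0251) or H4K91R replicate 1 (0.0257).

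**Figure D5:**
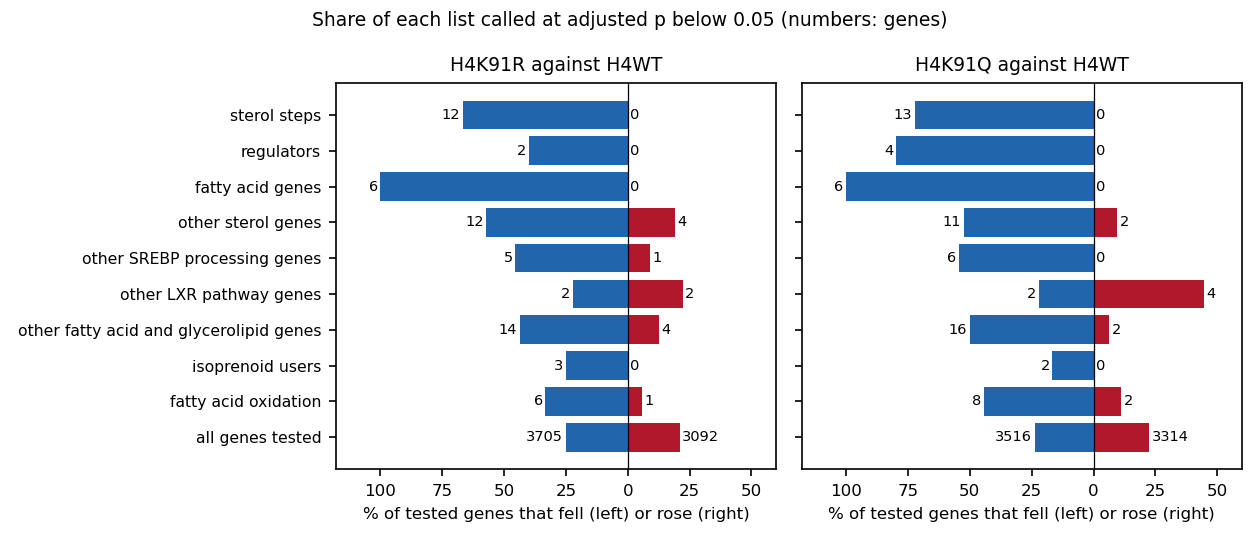
Percent of the tested genes of each list that fell (bars to the left) or rose (bars to the right) against H4WT at an adjusted p below 0.05, for H4K91R and H4K91Q, with the number of genes at the end of each bar and all genes tested in the bottom row. All 6 fatty acid genes fell in both mutants, and the lists beyond the 32 genes hold genes of both directions, apart from isoprenoid users and, in H4K91Q, SREBP processing.

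Markers of cell types moved together with these falls, and their part in the result was not tested. The summed level of 8 smooth muscle markers was 421.4 to 696 CPM in H4K91R and 394 to 455.5 CPM in H4K91Q, and 7 of 7 tested fell in each. The 8 neuron markers summed to 766.8 to 946.4 CPM in H4K91R and 609 to 646.6 CPM in H4K91Q, and 8 of 8 rose in each. Of the 8 neural progenitor markers, 6 rose in each mutant, while Vim fell in H4K91R and both Vim and Nes fell in H4K91Q. The median log2 changes of the 8 markers were 1.80 and 1.36. Their sum went the other way, at 1719 to 1827 CPM in H4K91R and 1498 to 1559 CPM in H4K91Q, since its main part, Vim, fell by 0.59 and 0.70 on the log2 scale. Epithelial markers summed to 1311 to 1420 CPM in H4WT, 728.8 to 814.8 CPM in H4K91R and 804.5 to 934.7 CPM in H4K91Q, with 6 of 7 tested lower in each mutant. Pluripotent cell markers moved apart in the mutants, at 112.3 to 201.3, 43.1 to 79.2 and 179 to 325.5 CPM in the 3 groups. Of 8 adipocyte markers, 3 could be tested, of which 2 rose in H4K91R and 3 in H4K91Q, and 1 was at 0 in every library. Their sum, 38.5 to 47.9, 88.3 to 104.3 and 117.5 to 129.9 CPM, came mostly from Lpl and Cebpa, which are not specific to adipocytes. Of 7 astrocyte markers tested, 4 rose in each mutant and 1 fell in H4K91R. Of 5 oligodendrocyte markers tested, 3 rose and 1 fell in each. Of 8 fibroblast markers, 3 rose and 2 fell in H4K91R, and 2 rose and 2 fell in H4K91Q. Of 6 visceral endoderm and liver markers tested, 1 rose in H4K91R, and 2 rose and 1 fell in H4K91Q. Proliferation markers stayed within 1663 to 1735, 1703 to 1746 and 1733 to 1808 CPM, and 2 of 8 passed the test in H4K91Q, 1 higher and 1 lower.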

How the data were processed

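The labels' protocols name QIAGEN RNeasy for isolation of the RNA, of which the poly(A) part was sequenced, and NEBNext Ultra II for the libraries. The deposited table holds expected counts per gene, all whole numbers, for 9 libraries in 3 groups of 3. Salmon 0.8.2, the build mm10 and DESeq2 are named, the last with no version or role, per the submitters' processing notes. How the values were rounded, annotated, trimmed and assigned to strands is not given in the sources used here. A whole-number estimate of this kind makes genes with similar copies, such as Scd1 and Scd2, uncertain.

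Of 24100 gene IDs, 24045 matched a symbol in RefSeq's GRCm38.p6 table, a patched mm10, which also supplied the coordinates. The filterByExpr function of edgeR 4.0.16 under R 4.3.3 kept 14761 genes at its minimum count of 10. All 9 libraries, with TMM factors of 0.911 to 1.06, entered 1 quasi-likelihood fit with a mean for each group and a biological coefficient of variation of 8.82%. Two-sided p-values were adjusted by Benjamini-Hochberg over all genes tested, with a threshold of 0.05. Log2 changes are given with SE or a 95% interval. Alternatives were DESeq2 1.42.0, limma-voom (limma 3.58.1), RLE scaling, library totals alone, no filter, the compared groups only, a replicate block and each library left out. By replicate number, deviations from the group means of H4WT and H4K91Q correlated at 0.14 to 0.198 in all 3 pairs. The 6 other pairs correlated at -0.239 to 0.0359. Deviations within a group sum to 0, so these ranges are not independent of each other. The numbers may pair these libraries, but the main fit used no pairing. The replicate number entered only as the block of 1 alternative. The labels name no shared batch. A count of 0 allows up to 3 counts, 0.111 to 0.367 CPM, for counting error only.

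All 32 genes are named. From each of the other lists up to 3 called genes with the smallest joint p and at least 2 CPM were named. Lbr was named besides these, since it shares the reaction of Tm7sf2. The 32 genes and all lists were chosen with earlier results of these data known. Of 193 listed genes, 192 matched.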

Additional observations from a re-analysis of the deposited data

Results flagged for a closer look

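The effects of H4K91R and H4K91Q, each taken against H4WT, differed for 6 named genes outside the 32, by the contrast between the mutants (edgeR, Benjamini-Hochberg adjusted over all genes tested). Abcg4, the sterol exporter, rose in both mutants, with a difference (H4K91Q minus H4K91R) of -0.81 on the log2 scale (adjusted p = 0.0236), at 2.20 ± 0.03 against 3.89 ± 0.47 CPM (mean ± SD). Cpt1c, the brain form of the carnitine transferase, differed by -0.41 (adjusted p = 0.023), at 55.3 ± 2.93 against 73.0 ± 6.75 CPM. The neuron marker Map2 differed by -0.52 (adjusted p = 0.0203) and the neural progenitor marker Fabp7, a brain fatty acid binding protein, by -0.52 (adjusted p = 0.0277). Both rose in each mutant against H4WT, by 2.34 and 1.82 for Map2 and by 2.88 and 2.36 for Fabp7 in H4K91R and H4K91Q. The pluripotency markers differed the other way. Pou5f1 was higher in H4K91Q by 2.65 (adjusted p = 0.000429), at 47.5 to 77.1 against 6.85 to 11.7 CPM, and Dppa5a by 1.51 (adjusted p = 0.0119), at 103 ± 38.0 against 36.8 ± 12.1 CPM.

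The difference between the mutants lost its call without some single libraries. For Abcg4 these were H4K91R replicates 2 and 3 and H4K91Q replicates 1 and 2 (adjusted p = 0.0891, 0.0615, 0.0746 and 0.0868). For Cpt1c they were replicates 1 and 2 of either mutant, with adjusted p = 0.0938 and 0.0748 for H4K91R and 0.0963 and 0.0643 for H4K91Q. For Map2 they were H4K91R replicate 2 and H4K91Q replicates 1 and 2 (adjusted p = 0.0967, 0.065 and 0.085). For Fabp7 they were H4K91R replicates 2 and 3 and H4K91Q replicates 1 and 2 (adjusted p = 0.0675, 0.0646, 0.118 and 0.0625), and for Dppa5a H4K91R replicate 2 (0.0649).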

How the results depend on the processing

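With library totals alone in place of TMM, the genes of the 32 called in H4K91R moved from 0 higher and 21 lower to 3 and 10, those in H4K91Q from 0 and 24 to 1 and 15, and those of the joint test from 25 to 16. On that scale 2 sterol steps rose and 5 fell in H4K91R, 1 rose and 7 fell in H4K91Q, and 3 fatty acid genes fell in H4K91R. The medians were then -0.0917 and -0.1489 for the sterol steps and -0.2371 and -0.301 for the fatty acid genes. Over all genes, 5031 rose and 2013 fell in H4K91R on that scale, and 5557 and 2069 in H4K91Q. The other lipid genes moved to 27 higher and 24 lower in H4K91R and to 24 and 29 in H4K91Q. The cause of these shifts was not tested. Apart from library totals, 17 of 21 H4K91R calls remained under every alternative (not those of Mvd, Fdps, Dhcr7 and Fasn), and 21 of 24 H4K91Q calls did (not those of Fdps, Nsdhl and Ebp). Between the mutants, RLE scaling, library totals and limma-voom each called 1 of the 32 genes lower in H4K91Q, the sterol step Dhcr7, and DESeq2 called 3, of which 1 was a sterol step. Leaving out 1 library gave 0 to 3 such genes, 0 to 1 of them sterol steps, with 3 only without H4K91Q replicate 3. Of the other lipid genes, 3 were lower in H4K91Q than H4K91R with the compared groups only, against 5, and 0 to 5 with 1 library left out. By edgeR 0 of them were higher, or 1 without H4K91Q replicate 3. For H4K91Q against H4WT, 6 to 10 other lipid genes rose with 1 library left out, and 6 without H4K91Q replicate 2. No called value changed sign, and 48 sign changes were among values called under neither setting. With a replicate block, 21 of the 32 genes fell in H4K91R and 25 in H4K91Q, 0 differed between the mutants, and 25 differed in the joint test. The block changed no call of the 32 genes other than that of Scap in H4K91Q. For the comparisons with H4K91R, same-number correlations were -0.163 to 0.174 for H4WT and -0.0518 to 0.198 for H4K91Q. Pairs of other numbers gave -0.286 to 0.265 and -0.201 to 0.223. These few values show no clear pairing by number and cannot exclude it. Over all groups, 5 of 9 libraries correlated best with their own number. With CCAAT searched in the 150 bases before the start only, 17 of 26 promoters held it, against 27.5% of protein-coding genes. Depth did not limit detection of the 32 genes, all of which had a mean of at least 20 CPM, and the precision rests on 3 libraries per group.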
